A study of Rattus norvegicus with 10 samples.

Results

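The acute phase genes and Slpi, 10 genes for secreted plasma proteins, were followed in rat liver: Slpi, A2m, Lcn2, Crp, Hp, Orm1, Fga, Fgb, Fgg and Hamp. They were picked by name, with signals of the same arrays already known. Differences of these 10 genes between diets are therefore given as a description, with no p-value for any of them. Counts of members past a threshold are printed beside the same count over all probe sets, and nothing is read from them. The array annotation gives these symbols to 13 probe sets, of 31042 probe sets and 14217 named genes. Of the 13, 11 were bright enough to be tested, and the other 2 were weak probe sets of Fgb.

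Liver RNA of male Wistar rats, an outbred laboratory strain, was measured on 10 Affymetrix Rat 230 2.0 arrays, 2 for each of 5 diets. Chow rats ate a standard diet, for which no fat share was given. The other rats ate diets with 42% of energy as fat, with lard, olive oil or coconut fat as its source, or fish oil, which the series' design names as cod liver oil. All were fed for 12 weeks and fasted overnight before a piece of liver was frozen. A comparison with chow therefore joins the kind of fat with its amount and with other differences in composition. The labels do not say whether an array holds RNA of a single rat or of a pool, and they name no shared cages. Each p-value therefore reflects only how far these samples spread, which may not be the spread between rats. In whole liver, fewer cells of a type and less RNA per cell cannot be told apart. Values are MAS5 signals, a linear probe set intensity in arbitrary units, and signals of different probe sets are not compared with each other. Fold changes were taken as differences of log2(signal + 3.1), a scale on which changes of dim genes come out too small, with a standard error (SE) from a limma fit over all 10 arrays.

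The acute phase response is the change in plasma proteins that follows injury or infection, and the hepatocyte makes most of them. Interleukin-6 acts through the transcription factor Stat3, and interleukin-1 through NF-kappaB and C/EBP factors, to raise these genes. In the rat, A2m and Orm1 are classical strong responders, whereas Crp is already abundant in the plasma of healthy rats.

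Sequence before or around the annotated start of 4 of these genes is shown. The fibrinogen chains were chosen because their signals lay close together across the arrays. Orm1 was chosen because its 2 fish oil arrays were the lowest of the 10. Fibrinogen, the precursor of the clot, is assembled from 3 chains made by Fga, Fgb and Fgg, which are neighbours on rat chromosome 2. Each window holds 250 bases on the gene's strand of GRCr8, credited to RefSeq: Fgg chr2:170652833-170653082 (+), Fga chr2:170671919-170672168 (+), Fgb chr2:170700876-170701125 (-) and Orm1 chr5:81788259-81788508 (+). Capitals mark matches, on either strand, to 4 motifs: CTGGGAA of interleukin-6 response elements, TTCNNNGAA of STAT factors, TTNNGNAAT of C/EBP factors and TATAAA.
Fgg: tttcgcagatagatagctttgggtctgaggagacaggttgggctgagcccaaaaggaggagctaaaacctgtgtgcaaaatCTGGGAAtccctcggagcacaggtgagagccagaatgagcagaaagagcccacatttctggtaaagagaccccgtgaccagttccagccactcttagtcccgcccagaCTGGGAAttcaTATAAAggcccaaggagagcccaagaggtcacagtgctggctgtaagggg
Fga: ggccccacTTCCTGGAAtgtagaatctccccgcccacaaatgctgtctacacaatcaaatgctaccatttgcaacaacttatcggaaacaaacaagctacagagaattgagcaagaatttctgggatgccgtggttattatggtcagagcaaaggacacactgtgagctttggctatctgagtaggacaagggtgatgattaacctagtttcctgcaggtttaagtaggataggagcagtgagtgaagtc
Fgb: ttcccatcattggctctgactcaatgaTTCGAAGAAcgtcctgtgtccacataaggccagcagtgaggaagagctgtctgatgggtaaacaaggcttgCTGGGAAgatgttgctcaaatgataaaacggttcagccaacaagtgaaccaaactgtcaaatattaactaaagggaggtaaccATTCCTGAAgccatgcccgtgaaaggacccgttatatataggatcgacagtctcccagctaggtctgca
Orm1: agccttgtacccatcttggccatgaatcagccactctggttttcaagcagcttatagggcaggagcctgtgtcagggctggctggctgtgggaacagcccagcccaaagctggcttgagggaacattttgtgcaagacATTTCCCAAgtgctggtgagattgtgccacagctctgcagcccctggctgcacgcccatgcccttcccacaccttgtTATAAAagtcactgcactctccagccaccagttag

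The Fgg window holds CTGGGAA at 169 and 61 bases before its end and TATAAA at 50. The annotated gene start of Fgg, at chr2:170652929, lies inside that window. The match at 169 lies before that start, and those at 61 and 50 lie past it. The Fgb window holds CTGGGAA at 152, a STAT match at 223 and a C/EBP match at 69, and the Fga window a STAT match at 242. The Orm1 window holds a C/EBP match at 112 and TATAAA at 35. Among 33469 windows of the same length, 9.56% hold CTGGGAA, 7.67% the STAT letters, 10.9% the C/EBP letters and 12.9% TATAAA. A match describes letters in the window and is not evidence of binding. Windows were at hand for 7 of the 10 genes.

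Slpi, the secretory leukocyte protease inhibitor, blocks neutrophil elastase and cathepsin G, and was the member that differed most between diets. Its signal was 6.5 and 2.6 on the chow arrays, 262.5 and 174.1 with lard, 151.7 and 289.3 with olive oil, 168.3 and 21.3 with coconut fat, and 58.3 and 80.8 with fish oil. All 8 high-fat arrays lay above both chow arrays, and the second coconut fat array was the lowest of the 8. Across these 8 the lowest signal was 21.3, the median 160.0 and the highest 289.3. The diet means were 4.55 ± 2.76 with chow, 218.3 ± 62.5 with lard, 220.5 ± 97.3 with olive oil, 94.8 ± 104 with coconut fat and 69.6 ± 15.9 with fish oil (SD, n = 2). The SD exceeded the mean with coconut fat, where the 2 arrays differed 7.90-fold. Both fish oil arrays lay between the 2 coconut fat arrays and below all 4 arrays of lard and olive oil.

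**Figure D1:**
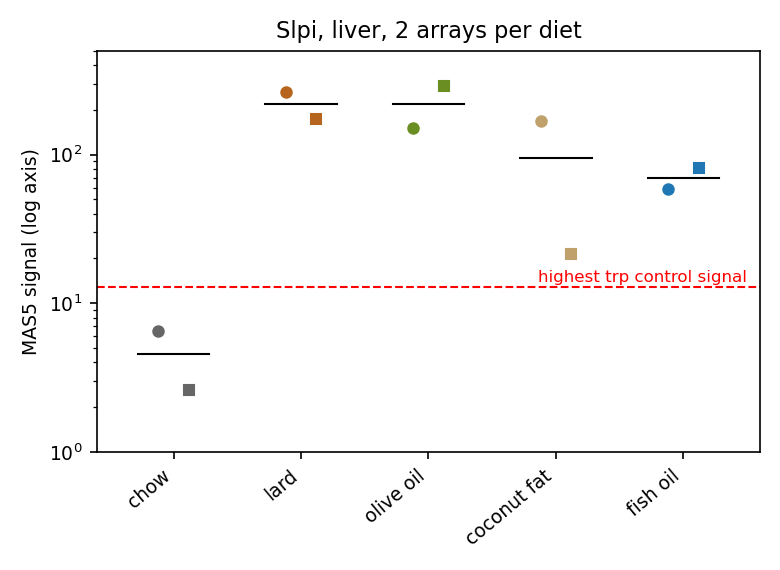
MAS5 signal of Slpi (log axis) on each of the 2 arrays of 5 diets, one point per array. Both chow arrays, at 6.5 and 2.6, lie below all 8 high-fat arrays, which run from 21.3 to 289.3.

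Both chow signals of Slpi fell under 12.8, the most that any probe set for bacterial trp reached, a sequence no protocol step was said to add. A signal at or below 12.8 gives only a bound, so the difference from chow is a minimum. Slpi was at least 16.7-fold higher with lard, at least 16.4-fold with olive oil, at least 4.68-fold with coconut fat and at least 5.36-fold with fish oil. Leaving out the first or the second array of the diet, the lard minimum was 13.6 or 20.5, and for fish oil the corresponding minima were 6.31 and 4.55. The coconut fat minimum rested on its first array: leaving that array out gave 1.66, and leaving the second out gave 13.1. For olive oil the 2 minima were 22.6 and 11.9. Set against lard, olive oil and coconut fat together, Slpi with fish oil had a log2 fold change of -1.0 (SE 0.58), which ranged from -1.47 to -0.54 over the settings and arrays left out.

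A2m, alpha-2-macroglobulin, traps proteases of many classes, and in the adult rat liver it is low until inflammation. Its signals were 24.7 and 31.5 with chow, 44.2 and 41.8 with lard, 53.2 and 76.7 with olive oil, 32.7 and 43.3 with coconut fat, and 41.5 and 79.1 with fish oil. As for Slpi, all 8 high-fat arrays lay above both chow arrays, but the margin was small: the lowest, a coconut fat array, was at 32.7 and the higher chow array at 31.5. Diet means ran from 28.1 ± 4.81 with chow to 65.0 ± 16.6 with olive oil and 60.3 ± 26.6 with fish oil (SD, n = 2). The log2 fold changes against chow were 1.11 with olive oil, 0.97 with fish oil, 0.57 with lard and 0.39 with coconut fat (SE 0.36 for each). Among the high-fat diets, fish oil overlapped each of the others and lard overlapped coconut fat, while both olive oil arrays lay above those of lard and coconut fat.

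Lcn2, lipocalin 2, binds bacterial siderophores and so withholds iron. Its signals were 33.7 and 28 with chow, 11.9 and 58.2 with lard, 53.1 and 42.1 with olive oil, 72.2 and 32.8 with coconut fat, and 96.6 and 54.2 with fish oil. The lard arrays were the lowest and the third highest of the 10, so no order of lard against any other diet can be read, and the first of them, at 11.9, was under the bound of 12.8. The olive oil and fish oil arrays lay above both chow arrays, with log2 fold changes of 0.58 and 1.16 (SE 0.59 for each). The pooled SD within diets was 0.78 on the log2 scale, against a range of 1.32 between diet means.

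Orm1, alpha-1-acid glycoprotein, carries basic drugs and other small molecules in plasma. Its signals were 6111.9 and 7464.8 with chow, 4956.5 and 6111.8 with lard, 7402.2 and 3751.6 with olive oil, 6101.5 and 5652.9 with coconut fat, and 2903.6 and 3416.3 with fish oil. The 2 fish oil arrays were the lowest of the 10, next to the second olive oil array. Their mean was 3160 ± 363 against 6788 ± 957 with chow (SD, n = 2). The log2 fold change was -1.10 against chow (SE 0.26) and -0.82 against the other 3 fats (SE 0.21). Over all settings and arrays left out these ran from -1.24 to -0.96 and from -0.98 to -0.65. The olive oil arrays differed 1.97-fold: without the first the Orm1 log2 fold change of olive oil against chow was -0.85, and without the second it was 0.13.

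The direction of Orm1 with fish oil was opposite to that of A2m and Lcn2 in the same arrays. The summed signal of markers of Kupffer cells and other macrophages, whose cytokines act on hepatocytes, was also low on the fish oil arrays. Over the 12 markers on the array, this sum was 4531 to 4936 with fish oil and 5492 to 7713 over the other 8 arrays. Bright markers such as Mpeg1 weigh most in it. Single markers did not all keep this order: Adgre1 was lowest with coconut fat (37.5 and 42.5). C1qb was 355.3 and 399.3 with fish oil and 393.7 and 390.1 with chow. Of 14 marker probe sets tested, 13 lay below 0 for fish oil against chow, as did 9586 of all 18625. In limma 0 of the 14 had an adjusted p under 0.05, and 3 had an unadjusted p under 0.05 (7.63% of all probe sets). For the mean of the 4 high-fat diets against chow, 13 of the 14 also lay below 0. The part of these cells in the Orm1 values was not tested.

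Hp, haptoglobin, binds free haemoglobin and carries it to macrophages. Its signals were 10556.0 and 10894.9 with chow, 10405.8 and 10932.7 with lard, 12931.3 and 10915.0 with olive oil, 10840.2 and 11603.3 with coconut fat, and 10483.7 and 10747.7 with fish oil. The first olive oil array stood above the other 9, which lay between 10405.8 and 11603.3. The diet means of Hp spanned 0.16 on the log2 scale, a smaller range than that of all but 2.87% of the probe sets tested.

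Crp, C-reactive protein, binds phosphocholine on microbes and dead cells and activates complement. Its signals were 6005.2 and 6158.5 with chow, 5771.6 and 5211.1 with lard, 5294.9 and 5402.9 with olive oil, 6328.6 and 6486.8 with coconut fat, and 6393.5 and 6384.2 with fish oil. As deposited, the arrays fell into a narrow order, with coconut fat and fish oil above chow, and chow above lard and olive oil, without overlap between these 3 sets. This order depended on scaling. With each array's median log2 deviation of the 100 brightest probe sets subtracted, coconut fat (0.04 and 0.05) lay below chow (0.08 on both arrays). Fish oil (0.15 and 0.07) then overlapped chow. Lard against chow was -0.06 after quantile normalization and -0.22 with a shared 75th percentile. The differences were small: log2 fold changes against chow were -0.19 with olive oil, -0.15 with lard, 0.08 with coconut fat and 0.07 with fish oil (SE 0.11 for each). Lard and olive oil overlapped, as did coconut fat and fish oil. The pooled SD of Crp within diets was 0.05, the smallest among the members.

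The signals of the fibrinogen chains covered narrow ranges. Fga, on its brighter probe set, gave 7630.6 and 8029.7 with chow, 7851.1 and 8314.6 with lard, 9976.3 and 8213.3 with olive oil, 7820.3 and 8184.8 with coconut fat, and 8039.2 and 8263.8 with fish oil. Fgb gave 8453.8 and 8661.0, 8653.1 and 8813.0, 10862.8 and 7992.8, 8439.0 and 9590.8, and 8593.6 and 8685.5 in the same order of diets. Fgg gave 10117.4 and 10444.8, 10047.1 and 10242.5, 13117.2 and 10732.1, 10872.7 and 11354.4, and 10204.2 and 11036.0. For all 3 chains the first olive oil array was the highest of the 10, and the other 9 arrays lay between 7630.6 and 8314.6 for Fga, 7992.8 and 9590.8 for Fgb, and 10047.1 and 11354.4 for Fgg. Diet means spanned 0.21 (Fga), 0.12 (Fgb) and 0.23 (Fgg) on the log2 scale, where the median probe set spanned 0.57. The Fgb range was below its own pooled SD within diets, 0.15.

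A second, dimmer probe set of Fga had a wider spread. It gave 1387.9 and 1899.6 with chow, 1917.7 and 2489.3 with lard, 2788.2 and 2317.8 with olive oil, 1986.8 and 1738.8 with coconut fat, and 2124.8 and 1495.1 with fish oil. Its olive oil arrays lay above both chow arrays (log2 fold change 0.65, SE 0.21), and so did its lard arrays, the first by a narrow margin (0.43, SE 0.21). The 2 probe sets of Fga thus differed in the size of their olive oil value, which was 0.21 for the brighter one. The 2 weak Fgb probe sets ran from 1.5 to 31.3 and from 1.8 to 29.0 and were not tested.

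**Figure D2:**
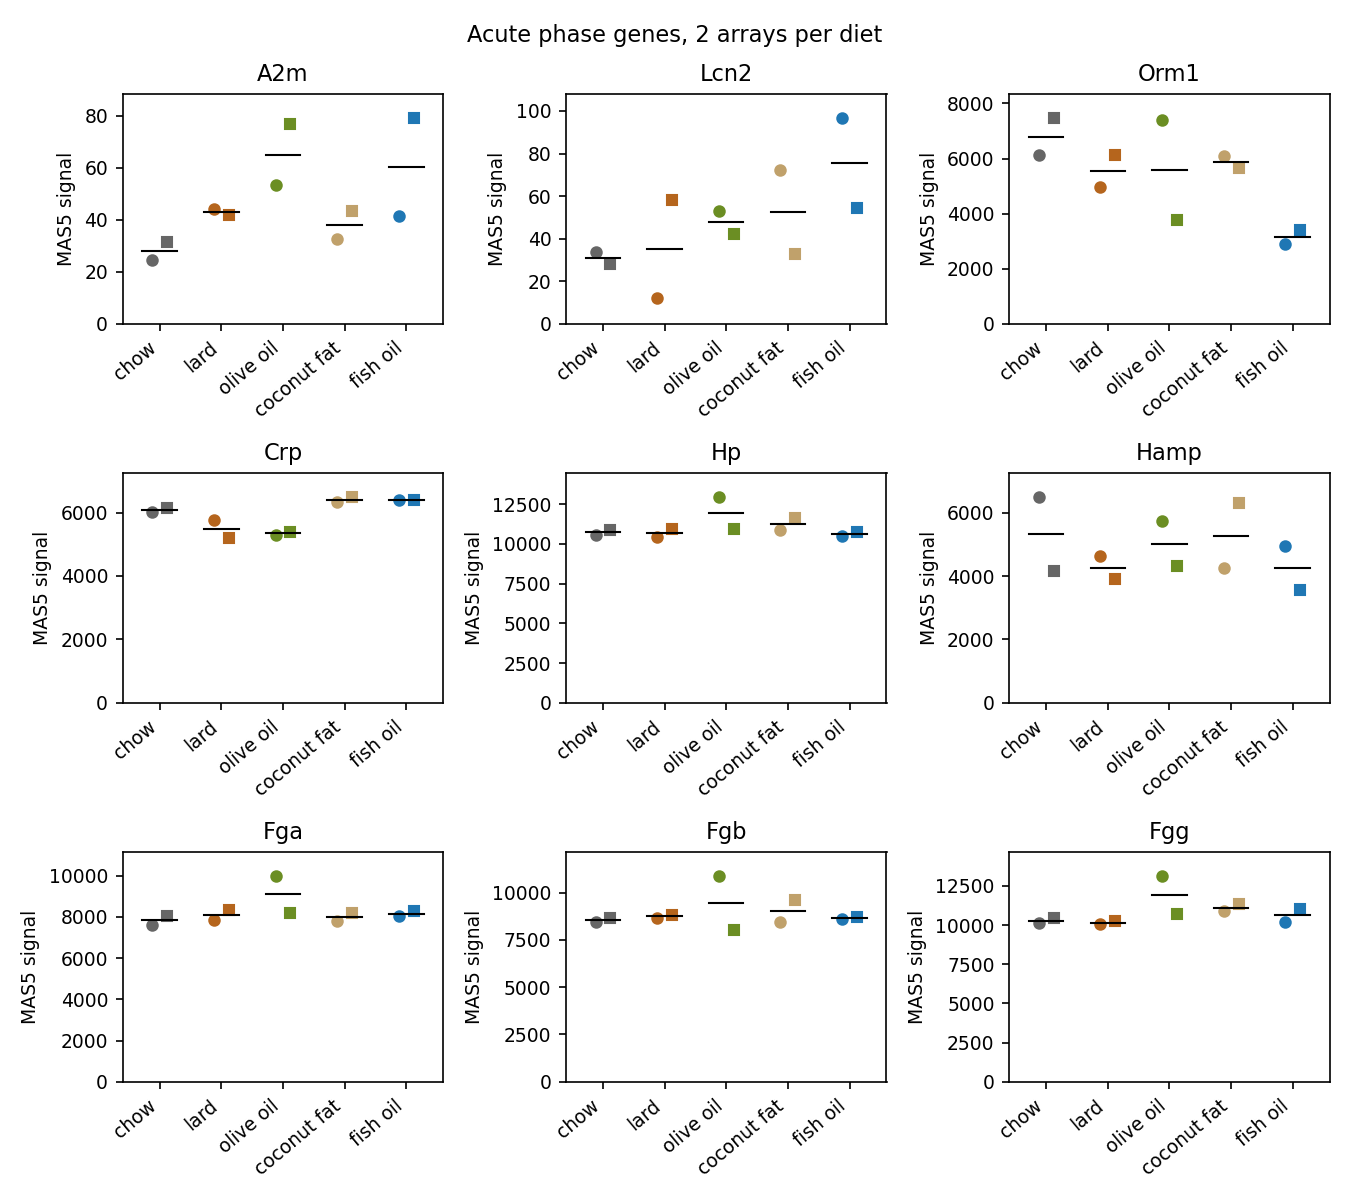
MAS5 signal of the acute phase genes other than Slpi, one panel per gene and one point per array, with axes from 0. The 2 fish oil arrays are the lowest of 10 for Orm1, and the first olive oil array is the highest for Fga, Fgb, Fgg and Hp.

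The first olive oil array stood out beyond these genes. It was the highest of 10 arrays for Fga, Fgb, Fgg and Hp, which lay 0.28, 0.30, 0.28 and 0.23 above their mean over the arrays on the log2 scale. On the same array, the median of the 100 brightest probe sets lay 0.12 above its mean. After this 0.12 was subtracted, the 4 values were 0.16, 0.17, 0.16 and 0.11. The geometric mean of the 12 Bacillus control probe sets, which report control RNA and not rat genes, was 315 on this array and 102 to 128 on the other 9. Whether the array's handling set the 4 values was not tested. Without this array, the olive oil values of these genes rest on 1 array, which lay between 7992.8 (Fgb) and 10915.0 (Hp) and within or near the range of the other diets.

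**Figure D3:**
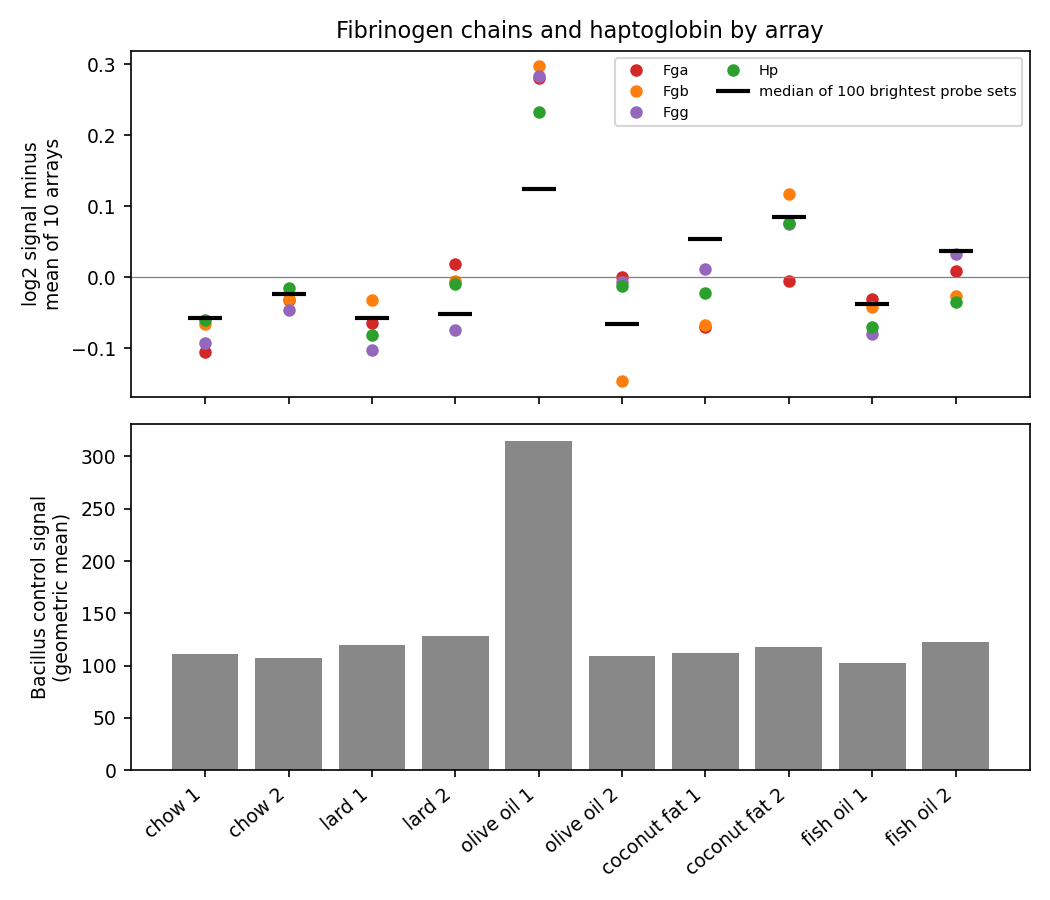
Upper panel, log2 signal of Fga, Fgb, Fgg and Hp minus each gene's mean over 10 arrays, with the median of the 100 brightest probe sets as a bar. Lower panel, geometric mean signal of the 12 Bacillus controls, which reaches 315 on the first olive oil array, where the 4 genes are also highest.

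Hamp, hepcidin, closes the iron exporter ferroportin and is raised by iron and interleukin-6. Its signals were 6489.0 and 4173.8 with chow, 4620.7 and 3912.3 with lard, 5730.8 and 4310.8 with olive oil, 4252.9 and 6294.1 with coconut fat, and 4962.4 and 3546.3 with fish oil. Every diet overlapped every other. The diet means spanned 0.31 on the log2 scale, under the pooled SD within diets of 0.34.

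The width of the differences sorted the members into groups. For Slpi, whose lowest diet, chow, was under the background bound, the span between diet means is known only as a minimum, the 16.7-fold given above for lard. A2m and Orm1 spanned 1.11 and 1.10 on the log2 scale, more than 84.0% and 83.6% of the probe sets tested. Lcn2 spanned 1.32, with lard as its lowest diet. Without the first lard array the log2 fold change of Lcn2 for lard against chow was 0.86 in place of -0.16. The widest difference was then 1.16, that of fish oil against chow. The other 6 genes spanned 0.31 or less on their brightest probe sets. The brightest probe sets of Hp, Fga, Fgb and Fgg had mean signals of 8232 (Fga) to 11031 (Hp), high on the scale of the array. The dimmer Fga probe set, with a mean of 2015, spanned 0.65 where the brighter one spanned 0.21. Whether signals flatten at such levels was not tested, so a narrow range there does not show a steady transcript.

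The members' comparisons are set against all 18625 probe sets tested. A probe set was called at a limma p-value adjusted by Benjamini-Hochberg under 0.05. One member, Slpi, was called higher for the mean of the 4 high-fat diets against chow, where 7 probe sets or 0.0376% were called. In the 5 other comparisons and in limma's F-test for any difference, 0 members were called. The share called was 0.0161% for lard, 0.0268% for olive oil, 0% for coconut fat and 0.156% for fish oil against chow, 0.424% for fish oil against the other 3 high-fat diets and 0.14% for the F-test. At an unadjusted p under 0.05 there were 1 (lard), 3 (olive oil), 1 (coconut fat) and 3 (fish oil) of 11 member probe sets, 3 for the mean of the 4 diets, 1 for fish oil against the others, and 2 in the F-test. These shares over all probe sets were 7.99%, 8.38%, 5.43%, 7.63%, 6.66%, 11.8% and 9.4%. Nothing is read from these counts, since the members were chosen on the same signals.

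The call of Slpi did not hold in many other settings. It was lost under quantile normalization, with a shared 75th percentile, with a larger offset, without the intensity trend, and without any 1 array of chow, lard, olive oil or fish oil. Its bounds above do not depend on that fit. The way dim probe sets were left out was settled after a first set of calls had been seen. In that first version, which went by the mean signal, Slpi was called for olive oil against chow as well.

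Counts of arrays that do not overlap were also taken. Against both chow arrays, both olive oil arrays were higher for 7 of 11 member probe sets (20.5% of all) and lower for 1 (17.5%). Lard had 3 higher (23%) and 2 lower (16.7%), coconut fat 4 higher (17.1%) and 1 lower (19.2%), and fish oil 5 higher (17.5%) and 1 lower (19%). All 8 high-fat arrays lay above chow for 2 member probe sets, of Slpi and A2m (2.55% of all), and below for 0 (2.51%). The fish oil arrays lay below all 6 of the other high-fat arrays for 1, of Orm1 (6.8%), and above for 0 (5.96%). Without the first olive oil array, 3 were lower with olive oil in place of 1, and the share over all probe sets was 33.3% in place of 17.5%.

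Median log2 fold changes of the 11 member probe sets were near those of all probe sets for most diets: -0.01 against 0.04 with lard, 0.08 against -0.02 with coconut fat and 0.06 against -0.01 with fish oil. They were 0.09 against 0.00 for the mean of the 4 diets and -0.06 against -0.02 for fish oil beside the other fats. With olive oil the median was 0.21 against 0.02. Of the 11, 8 lay above 0 with olive oil, and 6 after quantile normalization. Changes of sign under another scaling were limited to Fga, Fgb, Fgg, Hp and Hamp.

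**Figure D4:**
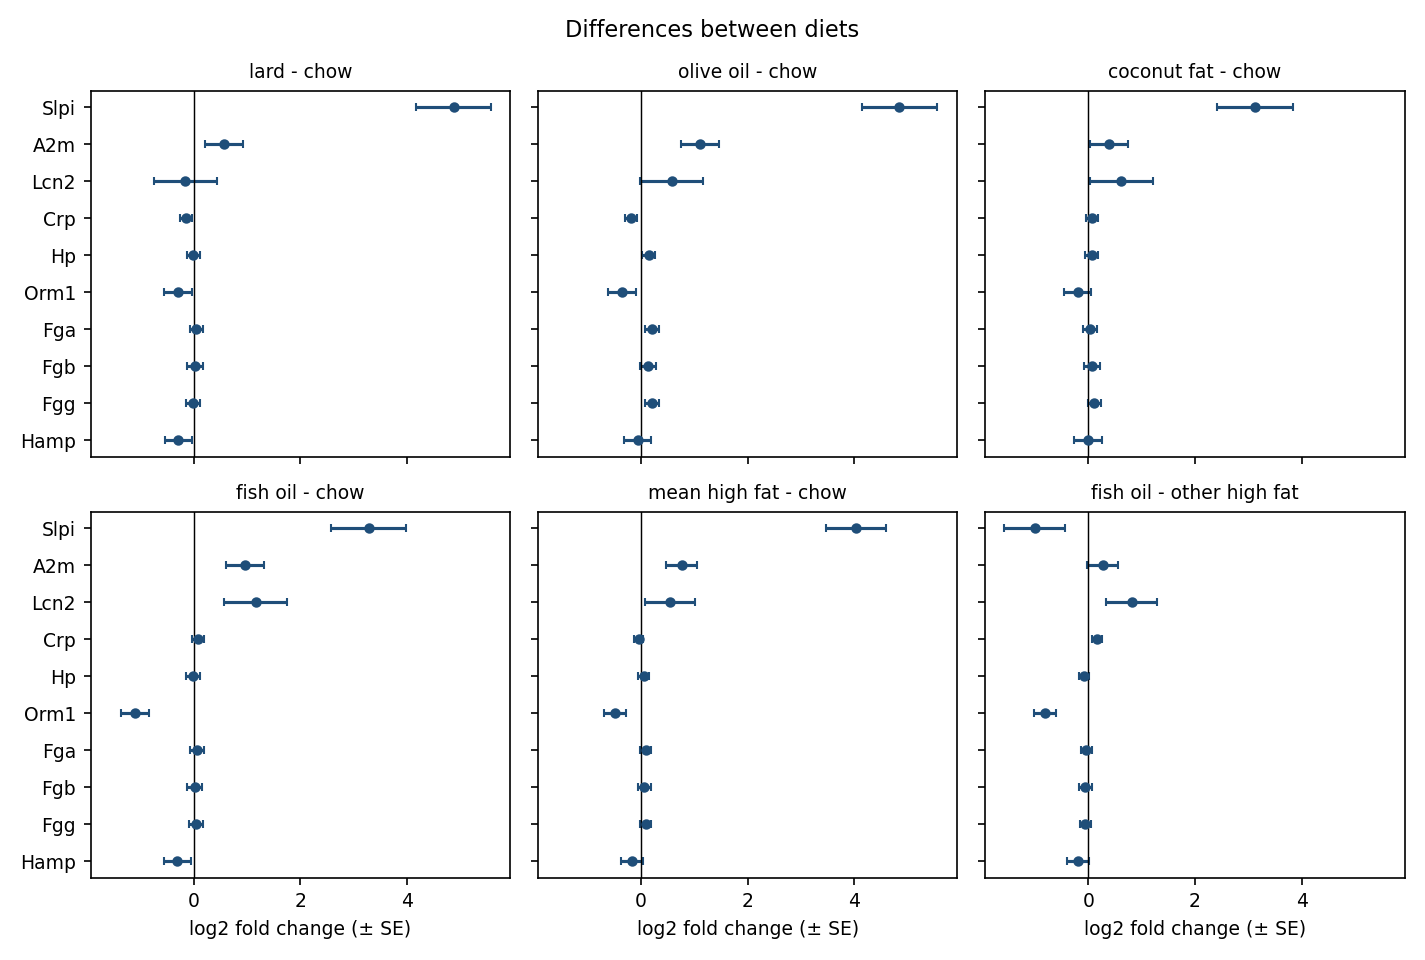
Log2 fold change with its SE from the limma fit for the brightest probe set of each of the 10 genes, one panel per comparison. Slpi lies far to the right of 0 in each comparison with chow, as a fitted value whose chow side is below background, and Orm1 lies to the left with fish oil.

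Genes related by function were taken from 5 lists: negative and other positive acute phase genes, cytokine signalling to them, hepcidin and iron, and relatives of Slpi or Lcn2. Of 167 names, 133 were on the array and 124, with 181 probe sets, were tested. The lists were chosen with earlier results of these data known. In limma 0 of the 181 were called for lard, olive oil or coconut fat against chow or for the mean of the 4 diets. At an unadjusted p under 0.05 there were 16, 30, 24 and 24 (7.99%, 8.38%, 5.43% and 6.66% of all probe sets). For fish oil, 1 was called lower against chow, and 1 higher and 1 lower against the other 3 high-fat diets. In these comparisons 32 and 39 had an unadjusted p under 0.05 (7.63% and 11.8% of all probe sets). The probe sets called were those of Il1r1 and Cd14. The median log2 fold change of the 181 was -0.06 for fish oil against the other 3 diets, beside -0.02 over all probe sets.

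Il1r1 is the receptor through which interleukin-1 acts on the hepatocyte. On the probe set that was called its signals were 586.5 and 647.8 with chow, 548.7 and 433.5 with lard, 533.1 and 521.5 with olive oil, 425.7 and 473.2 with coconut fat, and 264.7 and 264.3 with fish oil. Both fish oil arrays lay below all 8 others, as for Orm1. The share of all probe sets with that separation was not counted, and showing genes that were called favours it. The log2 fold change against the other high-fat diets was -0.87 (SE 0.13, limma adjusted p = 0.01659), and against chow -1.21 (SE 0.16, limma adjusted p = 0.01898). The other 2 probe sets of Il1r1 gave -0.15 and -0.47 against the other high-fat diets and were not called. Either fish oil array left out, or no intensity trend, ended both calls, and so did a fit without the second chow array or of the compared diets alone for the one against chow.

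Cd14, the co-receptor for endotoxin, is itself raised in liver during the acute phase. Its signals were 1100.3 and 1044.6 with chow, 422.4 and 579.1 with lard, 237.4 and 427.6 with olive oil, 356.1 and 320.6 with coconut fat, and 1186.8 and 1284.8 with fish oil. The chow and fish oil arrays lay above all 6 arrays of lard, olive oil and coconut fat, an order that no member showed. The share of all probe sets in that order was not counted. On the log2 scale fish oil exceeded those 3 diets by 1.71 (SE 0.20, limma adjusted p = 0.004943), and the F-test over the 5 diets passed (limma adjusted p = 0.01601). Both calls were lost without the intensity trend, the first also without the second fish oil array, and the F-test also without either fish oil array. Against chow the olive oil value was -1.74 (SE 0.24, limma adjusted p = 0.05264), on the other side of the threshold when dim probe sets were chosen by their mean signal.

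Stat3, which carries the interleukin-6 signal to acute phase genes, was not called. On the probe set with the smaller F-test p its signals were 214.4 and 232.6 with chow, 335.4 and 319.8 with lard, 515.1 and 463.8 with olive oil, 355.8 and 191.8 with coconut fat, and 170.8 and 186.5 with fish oil. The lard and olive oil arrays were above the chow arrays and the fish oil arrays below them, with 1 coconut fat array on either side. The other Stat3 probe set did not keep this order: its second lard and olive oil arrays (151.3 and 162.9) lay between the chow arrays (115.9 and 172.6) and both coconut fat arrays (109.9 and 115.2) below them. The F-test gave a limma adjusted p of 0.1657. The third gene of the cytokine list by F-test p, Jun, a subunit of AP-1, had on 1 of its 3 probe sets 52.4 and 46.2 with chow and 85.5 to 152.1 over the 8 high-fat arrays. These did not overlap, as for 2.55% of all probe sets. On the other 2 probe sets of Jun, the brightest among them, the first coconut fat array lay below both chow arrays (131.9 against 155.8 and 164.3 for the brightest, smallest limma F-test adjusted p = 0.2893).

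The list of relatives and partners of Slpi or Lcn2 had 13 probe sets tested. Of these, 0 passed limma's F-test, with 6 at an unadjusted p under 0.05 (9.4% of all probe sets). Wfdc21 and Wfdc2 share the whey acidic protein fold with Slpi. Wfdc21 gave 222.8 and 638.9 with chow, 674.9 and 753.6 with lard, 1535.2 and 560.8 with olive oil, 940.4 and 359.3 with coconut fat, and 176.2 and 175.7 with fish oil (limma F-test adjusted p = 0.3474). Wfdc2 gave 285.6 and 88.2, 550.9 and 257.0, 584.4 and 428.1, 274.3 and 318.1, and 129.9 and 182.9 (limma F-test adjusted p = 0.3932). Both fish oil arrays were the lowest of 10 for Wfdc21, and for Wfdc2 a chow array was. In both genes a chow array overlapped high-fat arrays, unlike Slpi. Mup5, a major urinary protein of the lipocalin family like Lcn2, gave 12.5 and 29.2 with olive oil and 50.2 to 115.8 on the other 8 arrays (limma F-test adjusted p = 0.1036), and its 3 probe sets belong to a family of near-identical genes.

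**Figure D5:**
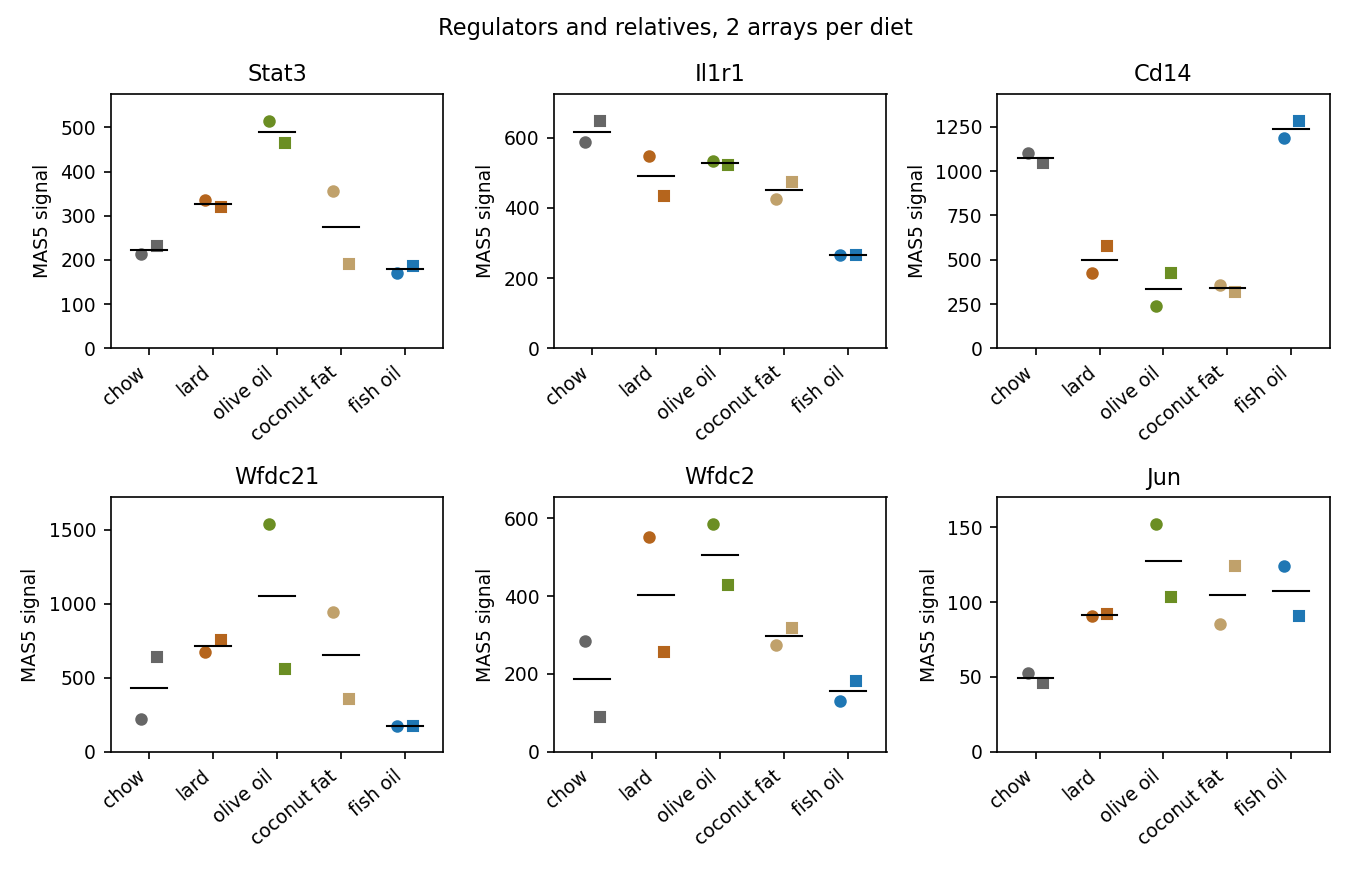
MAS5 signal of regulators and relatives of the acute phase genes, one panel per gene and one point per array, with axes from 0. For Cd14 the chow and fish oil arrays lie above the other 6, and for Il1r1 the fish oil arrays, at 264.7 and 264.3, lie below the other 8.

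Other positive acute phase genes had 42 probe sets tested. Of these, Cd14 alone passed limma's F-test and 9 had an unadjusted p under 0.05 (9.4% of all probe sets). Nnmt, which methylates nicotinamide, had 864.1 and 1003.6 with chow and 361.1 to 539.4 over the 8 high-fat arrays (limma F-test adjusted p = 0.1684). These did not overlap, as for 2.51% of all probe sets. Vnn1, pantetheinase, had 1034.1 and 715.0 with fish oil and 90.7 to 478.6 on the other 8 arrays (limma F-test adjusted p = 0.242). The share of all probe sets with that separation was not counted. Both genes were shown for their small F-test p, which favours separated arrays.

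Of 14 probe sets of negative acute phase genes, which fall in plasma as the others rise, 0 passed limma's F-test. At an unadjusted p under 0.05 there were 0 in that test (9.4% of all probe sets). There was 1 each for coconut fat and for the mean of the 4 diets against chow (5.43% and 6.66%). Serpina6, which carries corticosteroids, came first by p, with diet means from 3329 ± 629 with chow to 4825 ± 726 with coconut fat (SD, n = 2, limma F-test adjusted p = 0.5933). Tfrc and Apom, an apolipoprotein of the lipocalin family, had limma F-test adjusted p of 0.7175 and 0.7215. Tfrc, the transferrin receptor, was on the list although it is a membrane protein and no plasma protein of this class.

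Of 44 probe sets of hepcidin and iron genes, 0 passed and 1 had an unadjusted p under 0.05 in limma's F-test (9.4% of all probe sets). That was Aco1, an iron-sensing aconitase, with 944.3 and 1021.4 with fish oil and 523.5 to 775.5 on the other 8 arrays (limma F-test adjusted p = 0.3443). How many of all probe sets had that separation was not counted. Id1, a target of the bone morphogenetic protein signal that controls Hamp, and Hjv, the co-receptor of that signal, had limma F-test adjusted p of 0.5379 and 0.5803.

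Profiles closest to the members were found for the 4 genes whose diet means spanned over 1 on the log2 scale, by the root mean square difference of log2 signals centred on their mean, over 10 arrays. For Orm1 these were Ly86, Nectin3 and Slfn2, each at 0.21. Nectin3 had 385.6 and 472.1 with fish oil and 529.2 to 807.7 on the other 8 arrays, and its second olive oil array was the lowest of those 8, as for Orm1. For A2m they were Laptm4b (0.19), B4galt6 (0.24) and Lpcat3 (0.26). For Lcn2 they were Zfp62 (0.31), Chtf8 (0.32) and Cpxm2 (0.35), all dim, and all with their lowest signal on the first lard array. For Slpi the nearest were Metrn (1.26), Zbtb42 (1.28) and Ccdc141 (1.30). These distances use the chow signals of Slpi, which were under the background bound, so they are loose.

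Markers of other cells that could hold Slpi or Lcn2 were read beside these genes. Of 9 neutrophil markers on the array, S100a9 alone was bright enough to be tested, and Cxcr2 and Itgam were at or below 12.8 on every array. Their summed signal was 92.4 to 107.9 with chow, 136 to 232 with lard, 142 to 235 with olive oil, 95.4 to 115 with coconut fat and 104 to 114 with fish oil. This sum was above chow on the lard and olive oil arrays, the diets with the highest mean Slpi. It overlapped chow with coconut fat and fish oil, where Slpi was also above chow. The sum takes in markers too dim to be tested, so its order over diets is loose. S100a8 and Np4, for example, were 2.4 and 2.6 on the first lard array and 31.4 and 33.8 on the second. S100a9 was 57.1 and 45.8 with chow, 72.3 and 83.7 with lard, and 118.7 and 37.3 with olive oil. With coconut fat it was 58.3 and 33.1, and with fish oil 38.2 and 38.1. On the second olive oil array, where Slpi was highest, S100a9 lay below both chow arrays. The higher sum there came from markers too dim to be tested. Cholangiocyte markers, 8 in number with Cldn4 and Cldn7 at or below 12.8 on every array, summed to 225 to 332 with chow and 134 to 290 over the high-fat arrays. Mesothelial markers, 7 in number with Bnc1 at or below 12.8, summed to 974 to 1174 with chow and 755 to 1001 over the high-fat arrays. The part of these cells in the Slpi values was not tested.

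Apart from the first olive oil array, described above, general features of the arrays were as follows. The 2% trimmed mean was 100 on each, and the median signal ran from 28.7 to 31.8, except for the second lard array at 36.7. The ratio of 3' to 5' probe sets, a measure of RNA integrity, was 2.10 to 2.75 for actin and 0.959 to 1.19 for Gapdh. Both olive oil arrays had higher Gapdh ratios, 1.10 and 1.19, than any array of another diet. Their actin ratios were 2.50 and 2.75, the latter the highest, and that of the first fish oil array was 2.59. The part of RNA integrity in the olive oil values was not tested. Hepatocyte markers, 8 genes, summed to 50672 to 58240, with no array of another tissue to set this against. Precision is limited by the number of arrays, 2 for each diet.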

How the data were processed

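The deposited table holds 1 MAS5 signal intensity per probe set and array on a linear scale, made by the authors with MAS5 per the submitters' processing notes; its version is not given in the sources used here. The 57 control probe sets among 31099 were dropped. Symbols came from the platform annotation, updated by gene identifier: 20826 probe sets had 1, 436 several and 9780 none. Signals were turned into log2(signal + 3.1), 3.1 being the 10th percentile, and the 40% with the lowest mean log2 value were left out, 12417 in all. A first version filtered on the mean signal. It was replaced after its calls had been seen, to match an earlier processing of these data, and is given as an alternative. A mean per diet was fitted with limma 3.58.1 in R 4.3.3, with an intensity trend, 5 residual and 5.96 prior degrees of freedom, 6 comparisons and an F-test. A test on simulated data for fish oil with chow recovered 22 of 100 log2 changes of 1 and 70 of 100 of 2, among 18625 probe sets. Replicate numbers did not pair the arrays: over 10 pairs of diets, correlations of deviations ran from -0.03 to 0.08. Members, the 5 gene lists and 10 marker lists were chosen with earlier results of these data known. A member's brightest probe set represents it, and a related gene is shown on its probe set with the smallest F-test p. Besides the members, genes that were called were named, and the 3 with the smallest F-test p of each list.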

Additional observations from a re-analysis of the deposited data

How the results depend on the processing

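The alternatives were quantile normalization, a shared 75th percentile, the 25th percentile as offset, no filter, the lowest 60% left out, no intensity trend, a fit of the compared diets alone, a replicate block, and each array left out. A filter on the mean signal (20.16, with 18623 probe sets tested) was added after the data were seen: it called 15 probe sets for olive oil, 34 for fish oil and 12 for the mean of the 4 diets against chow, and 82 between fish oil and the other 3, in place of 5, 29, 7 and 79. Under it 1 member (Slpi) and 1 related gene (Cd14) were called for olive oil.

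Among members, Slpi was called for the mean of the 4 diets in the reported setting and 0 were with quantile normalization, a shared 75th percentile, the 25th percentile offset or no trend, and 0 to 1 with an array left out. For olive oil, 1 was called with the lowest 60% left out, with no filter or with only the diets compared, and for lard 1 with only the diets compared, Slpi each time. With an array left out, 0 to 1 were called for lard, olive oil, coconut fat and fish oil each with chow, in the F-test and when fish oil was set beside the other 3. The one called was Slpi, except that it was Orm1 without either olive oil array in fish oil against chow, and against the other 3 without the second. Member arrays that did not overlap, a count added after the data were seen, were 3 lower for olive oil and 1 lower for the mean of the 4 diets without the first olive oil array, against 1 and 0, where the shares over all probe sets were 33.3% and 3.03%.

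Among related genes, 1 (Cd14) was called for olive oil with the lowest 60% left out, no filter, the 25th percentile offset, a shared 75th percentile or the replicate block, and for coconut fat with only the diets compared. For fish oil against chow, 0 were called with no trend or only the diets compared. For fish oil against the other 3, 0 were called with no trend and 5 with only those diets. The F-test called 2 with no filter or quantile normalization and 0 with no trend. With an array left out, the ranges were 0 to 1 for each comparison with chow other than lard, 0 to 5 for fish oil against the other 3, and 0 to 2 in the F-test. The replicate block changed no other call counted here. Fitting only the diets compared was not run for the mean of the 4 diets, which uses all of them.

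Of 530 member fold changes under other settings, 520 moved by less than 1 SD within diets and 15 changed sign. Of 600 with an array left out, 580 moved by less and 25 changed sign, and of 18 from other probe sets 1 and 8. The cause of these changes was not tested. With 2 arrays per diet, a group left with 1 array is assumed to vary like the others.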

Other observations

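Markers of other cells are given as sums of signals, without a test of their part in any result. Across all marker lists 67 probe sets were tested, and 0 were called in any comparison or in limma's F-test. At an unadjusted p under 0.05 there were 11 in the F-test (9.4% of all probe sets). Markers of T, B and NK cells, 10 genes, summed to 242 to 272 with fish oil. On the other 8 arrays the sum was 308 to 373, without overlap. Cd3d and Cd79b were at or below 12.8 on every array, and Cd3g and Klrb1a were too dim to be tested. Single markers did not all keep the order of the sum: Lck was 79.1 and 83.5 with fish oil and 91.5 and 70.5 with chow. Of 7 probe sets tested, 5 lay below 0 for fish oil against chow and 2 above. Whether these cells were fewer was not tested. Erythroid markers, 4 genes, summed to 4292 to 5792 with fish oil and 5503 to 10142 on the others, which overlapped. Stellate cell and fibroblast markers summed to 1068 to 1400, endothelial markers to 2097 to 2891 and adipocyte markers to 114 to 192 over all arrays.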
